A study of Mus musculus with 9 samples.

Results

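The miR-181 family was followed in vesicles shed into the medium by mouse podocytes, a conditionally immortalized line that models the epithelium on the outer face of the kidney filter. The family was taken as 7 listed mature miRNAs of the 1915 mouse identifiers in each library, namely mmu-miR-181a-5p, mmu-miR-181b-5p, mmu-miR-181c-5p, mmu-miR-181d-5p, mmu-miR-181a-1-3p, mmu-miR-181a-2-3p and mmu-miR-181c-3p, written without the mouse prefix from here on. They were chosen by name and not by a measured value, though with earlier results of these data known. The 9 small RNA libraries fell into 3 groups of 3, all from the same line after 10 days of differentiation in medium with 5% fetal bovine serum. Cells were then held for 48 h in high glucose (30 mM), in mannitol (5.3 mM glucose with 24.7 mM mannitol, an osmotic control), or in normal glucose (5.3 mM). The line is a culture model outside the filter. Vesicles were precipitated from the supernatant with a polymer reagent, a method that also collects other RNA carriers of serum-containing medium. A read whose sequence is the same in mouse and cow cannot be told apart by species.

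A miRNA is cut from a hairpin precursor, whose 5p and 3p arms can each give a mature strand, and usually the strand loaded into Argonaute is kept while its partner is degraded. The strand finds target mRNAs mainly through its seed, bases 2 to 8. The 5p strands of the miR-181 family share their seed and are known for tuning T-cell receptor sensitivity (miR-181a), for dampening NF-kB signalling in endothelium by repressing importin-α3 (miR-181b), for repressing the apoptosis inhibitor BCL2, and, in the rat heart, for acting in mitochondria (miR-181c).

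The mature sequences below, from RefSeq on GRCm38.p6, carry the grouping used throughout and show why reads of some members are hard to keep apart. All 7 members matched the table, and capitals mark the seed.
miR-181a-5p: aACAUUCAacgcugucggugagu
miR-181c-5p: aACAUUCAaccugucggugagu
miR-181b-5p: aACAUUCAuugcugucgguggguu
miR-181d-5p: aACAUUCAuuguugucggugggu
miR-181a-1-3p: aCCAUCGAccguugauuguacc
miR-181c-3p: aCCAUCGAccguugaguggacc
miR-181a-2-3p: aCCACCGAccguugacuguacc

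The seed ACAUUCA occurred in 4 of the 1679 mature mouse miRNAs of that table, and those were the 4 5p members. Among the 3p members, miR-181a-1-3p and miR-181c-3p shared the seed CCAUCGA, which no other mature miRNA of the table had. The seed of miR-181a-2-3p differed from it by U5C, with positions counted from 1 at the 5′ end. Between miR-181b-5p and miR-181d-5p the only substitution over their shared length was C12U, while miR-181a-5p and miR-181c-5p were separated by an edit distance of 1, a missing base after their first 10 shared bases. A read with a single internal error could thus be counted for the neighbour, so the split within each of these pairs is uncertain. That includes the rare miR-181c-5p beside the abundant miR-181a-5p. How many reads were counted for a neighbour was not tested.

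The 4 5p members come from 6 hairpins at 3 loci of the mouse genome (GENCODE M21 on GRCm38, which is mm10). Mir181a-1 (chromosome 1, 137966455 to 137966541, plus strand) and Mir181b-1 (137966639 to 137966718) lie 97 bases apart, in introns of the non-coding Gm4258 and overlapping an exon of the lincRNA A430106G13Rik on the same strand. Mir181a-2 (chromosome 2, 38852735 to 38852810, plus strand) and Mir181b-2 (38853830 to 38853918) lie 1019 bases apart, antisense to introns of Nr6a1, a gene for an orphan nuclear receptor. Mir181c (chromosome 8, 84178873 to 84178961, minus strand) and Mir181d (84178716 to 84178787) lie 85 bases apart in introns of Nanos3, a germ cell gene, on its own strand. Because each 5p strand of miR-181a and miR-181b is the same at chromosomes 1 and 2, their counts pool both loci, whereas each 3p strand of miR-181a belongs to 1 hairpin.

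Total miRNA counts ran from 725211 to 2553690 in high glucose, from 1329426 to 2269776 with mannitol and from 1087144 to 1539514 in normal glucose. Levels are given as CPM, the usual depth-scaled unit, taken over all miRNA counts of a library, and as mature strands of 22 to 24 bases the members need no length correction. No count from 1 to 9 occurred, so a listed 0 stands for 0 to 9 reads. The podocyte-associated miR-30 strands were all listed, with a summed level of 106713 to 224982 CPM over the 9 libraries, led by miR-30a-5p (mean 116618 CPM) and miR-30d-5p (mean 36579 CPM). All 5 had positive log2 fold changes in high glucose against normal glucose (median 0.17) and against mannitol (median 0.41), and 4 of 5 negative ones in mannitol against normal glucose (median -0.08), with none passing the edgeR test. Over all 361 tested miRNAs, 168 were positive in high glucose against normal glucose and 168 against mannitol (median -0.04 in both). In mannitol against normal glucose 173 of the 361 were negative (median 0.01). Markers of other cells were present too, such as the liver miRNA miR-122-5p at a mean of 15937 CPM and the erythroid miR-486a-5p at a mean of 5879 CPM. The labels do not say whether separate cultures gave the libraries of a group. The p-values therefore rest on library-to-library spread, which may be technical.

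Together the 7 members held 1.10% ± 0.135 of miRNA counts in high glucose, 1.30% ± 0.0162 with mannitol and 1.32% ± 0.360 in normal glucose (SD, n = 3 each). Vesicles were measured in bulk, so fewer vesicles of a kind and less of a miRNA in each vesicle cannot be told apart. The family was dominated by miR-181a-5p and miR-181b-5p, which ranked 35 and 40 by mean level among the 479 miRNAs listed in any library. They were followed by miR-181d-5p at rank 82, miR-181c-3p at rank 164, miR-181c-5p at rank 252 and miR-181a-1-3p at rank 267. The remaining member, miR-181a-2-3p, was listed at 0 in all 9 libraries.

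**Figure D1:**
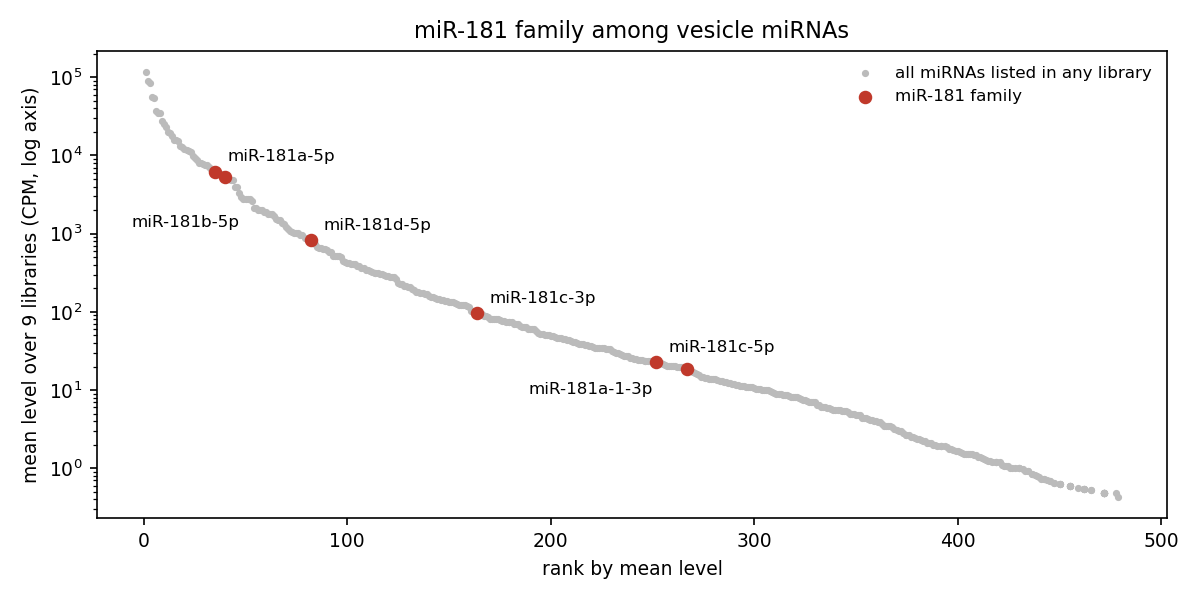
Mean level over the 9 libraries (CPM, log axis) of every miRNA listed in any library, ranked from the highest, with the 6 listed miR-181 members in red. They span from rank 35 to rank 267.

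The most abundant member, miR-181a-5p, stood at 4306, 5828 and 6282 CPM in the high glucose libraries, at 6289, 6415 and 6887 CPM in the mannitol libraries and at 7923, 4294 and 7580.2 CPM in the libraries of normal glucose. High glucose lay just under mannitol, by a narrow gap between 6282 and 6289 CPM, and both overlapped the wide normal glucose range. The group means were 5472 ± 1035, 6530.3 ± 315 and 6599 ± 2004 CPM in high glucose, mannitol and normal glucose (SD, n = 3 each), and the mannitol and normal glucose means differed by less than either SD.

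For miR-181b-5p, which shares its hairpin clusters with miR-181a, the levels were 4320.1, 4669.9 and 4883 CPM in high glucose, 5960.5, 5559.8 and 5154 CPM for mannitol and 7345, 4062 and 5247 CPM in normal glucose. Again every high glucose library was below every mannitol library, and the normal glucose libraries spanned both. Mean levels were 4624 ± 284, 5558 ± 403 and 5552 ± 1663 CPM (SD, n = 3 each), with no difference beyond the SD between mannitol and normal glucose.

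The chromosome 8 strand miR-181d-5p measured 709, 761 and 731 CPM in high glucose, 779, 947 and 664 CPM for mannitol and 1057, 902 and 842 CPM in normal glucose. All high glucose libraries were lower than all normal glucose libraries, while mannitol overlapped both. The means were 733 ± 26.0 CPM in high glucose, 797 ± 142 CPM for mannitol and 934 ± 111 CPM for normal glucose (SD over 3 libraries each), and the mannitol mean differed from each of the others by less than its own SD.

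In the low range, miR-181c-3p had 64.8, 86.9 and 99.1 CPM in high glucose, 91.0, 116 and 109 CPM for mannitol and 115, 76.3 and 101 CPM in normal glucose. Its groups overlapped throughout, as did those of the rarer strands. The partner strand miR-181c-5p had 13.8, 27.4 and 26.2 CPM in high glucose, 10.5, 25.8 and 16.3 CPM for mannitol and 26.6, 11.96 and 44.3 CPM in normal glucose, from only 10 to 67 reads a library. For miR-181a-1-3p the levels were 23.4, 12.5 and 20.4 CPM in high glucose, 28.6, 15.1 and 16.3 CPM for mannitol and 19.5, 12.9 and 19.9 CPM in normal glucose, from 14 to 52 reads. Near the reporting limit of 10 reads, differences of this size are not resolved.

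**Figure D2:**
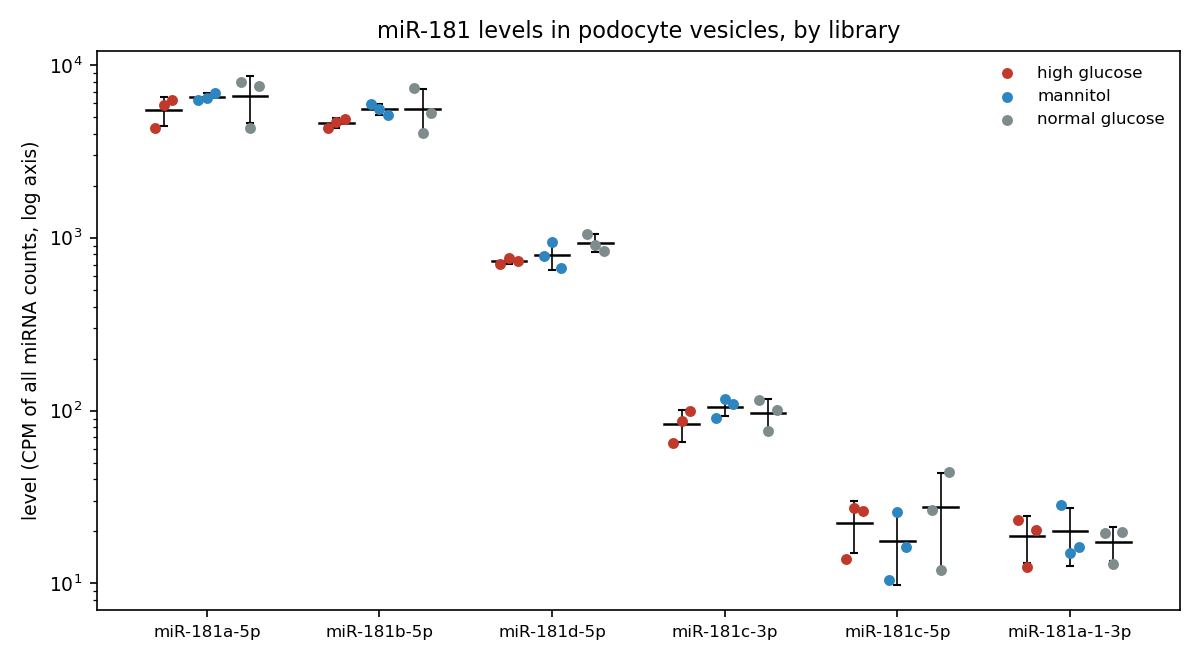
Levels of the 6 listed miR-181 members (CPM of all miRNA counts, log axis) in high glucose, mannitol and normal glucose, with 1 point per library, the mean as a bar and the SD as whiskers (n = 3 each). The abundant 5p strands of miR-181a and miR-181b lie far above the 3p strands, and most groups overlap.

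Libraries differed in ways that ran across the groups. High glucose replicate 1 and normal glucose replicate 2 held the lowest levels of miR-181b-5p (4320.1 and 4062 CPM) and of miR-181a-5p (4306 and 4294 CPM), and also the lowest total counts of all libraries (725211 and 1087144). Normal glucose replicate 3, with a similar total of 1107224, had 7580.2 CPM of miR-181a-5p and 5247 CPM of miR-181b-5p. The deepest library, high glucose replicate 3 (2553690), had 6282 and 4883 CPM. The part of depth in these levels was not tested. Over the 9 libraries the coefficient of variation was 20.4% for miR-181a-5p, 18.8% for miR-181b-5p, 18.3% for miR-181c-3p and 15.5% for miR-181d-5p. The 260 miRNAs listed in every library, not matched to these members for level, had a median of 31.7% and quartiles of 22.5% and 42.25%. The rare miR-181a-1-3p varied by 27.7% and miR-181c-5p by 47.3%.

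In high glucose, mannitol and normal glucose miR-181a-5p held 49.7% ± 3.53, 50.1% ± 3.06 and 49.6% ± 4.65 of the family's counts, and miR-181b-5p held 42.4% ± 2.89, 42.6% ± 2.59 and 41.96% ± 3.54 (SD, n = 3 each). The share of miR-181d-5p was 6.75% ± 0.724, 6.11% ± 1.05 and 7.38% ± 1.97. For each of the 3 strands the group means differed by less than the SD of normal glucose. The share of the 5p arms ran from 98.99% to 99.18% over all libraries.

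The ratio of miR-181a-5p to miR-181b-5p was 0.997, 1.25 and 1.29 in high glucose, 1.06, 1.15 and 1.34 with mannitol and 1.08, 1.06 and 1.44 in normal glucose. In each medium the library numbered 3 in its title had the highest ratio. What that number stands for is not given in the labels. The group means of 1.18 ± 0.157, 1.18 ± 0.143 and 1.19 ± 0.218 (SD, n = 3 each) differed by less than any of their SDs.

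In read counts the arms of miR-181a and miR-181c stood in opposite order. A part of reads miscounted between miR-181a-5p and miR-181c-5p in these ratios was not tested. For every read of miR-181a-1-3p a library held 184 to 465 reads of miR-181a-5p, although reads of miR-181a-5p also come from Mir181a-2. From Mir181c, in contrast, the 3p strand outnumbered the 5p strand in all 9 libraries. The ratio of miR-181c-3p to miR-181c-5p was 4.70, 3.17 and 3.78 in high glucose, 8.64, 4.51 and 6.70 with mannitol and 4.32, 6.38 and 2.29 in normal glucose. In single libraries the 3p strand made up at least 69.6% of the reads of both miR-181c arms (Wilson 95% interval 62.1% to 76.1%, normal glucose replicate 3), and at most 89.6% (83.3% to 93.7%, mannitol replicate 1), intervals that cover counting error only. Such an excess of the 3p arm was not unusual in these vesicles, since of 41 miRNA names with both arms listed in all libraries 20, miR-181c among them, had more 3p than 5p reads in each library.

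**Figure D3:**
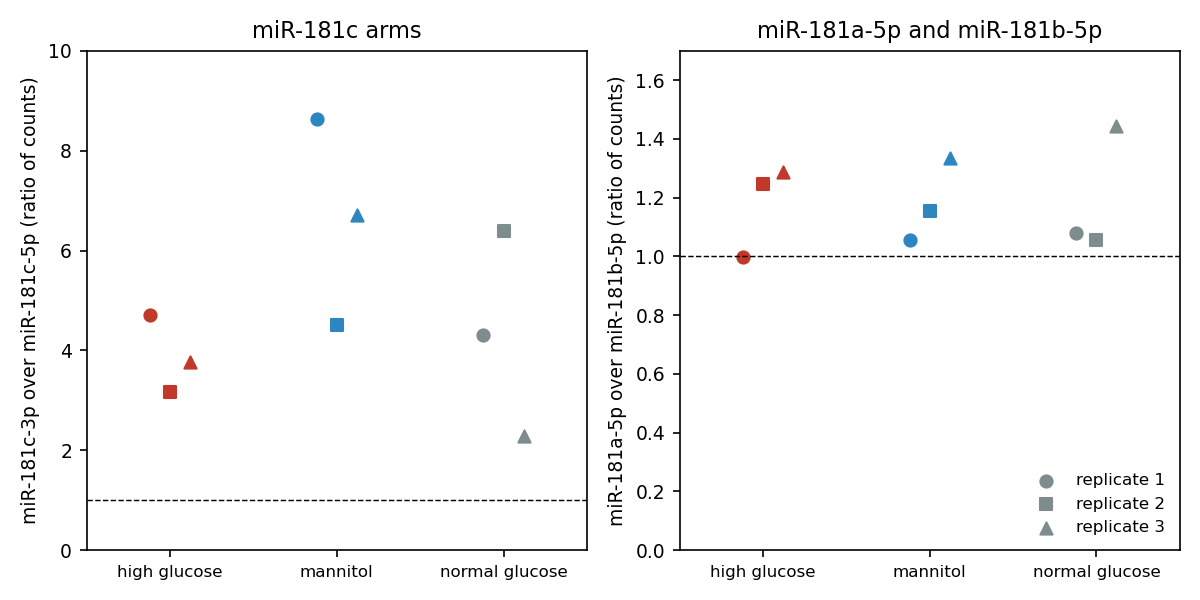
Ratio of counts of miR-181c-3p to miR-181c-5p (left) and of miR-181a-5p to miR-181b-5p (right) in each library, with marker shapes for the replicate and a dashed line at equal counts. The miR-181c ratio lies between 2.29 and 8.64, above equality in all 9 libraries, and the highest miR-181a to miR-181b ratio of each medium is that of replicate 3.

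For miR-181a the 3p strands also separate the loci. The chromosome 1 strand miR-181a-1-3p was listed in all 9 libraries, with 250 reads in all, and the chromosome 2 strand miR-181a-2-3p in none. A listed 0 allows up to 9 reads, or 3.52 to 12.4 CPM depending on the library, and miR-181a-1-3p exceeded that bound 1.56 to 5.78 times.

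High glucose was compared with normal glucose, the contrast in which glucose and osmolality change together. Of the 6 members that passed the expression filter (miR-181a-2-3p did not), 5 had negative fold changes and 1 a positive one, and none passed the test. The log2 fold changes of level in edgeR were -0.13 (95% interval -0.74 to 0.48) for miR-181a-5p, -0.15 (-0.72 to 0.42) for miR-181b-5p and -0.25 (-0.88 to 0.37) for miR-181d-5p. They were -0.09 (-0.80 to 0.62) for miR-181c-3p, -0.10 (-1.53 to 1.32) for miR-181c-5p and 0.19 (-1.33 to 1.72) for miR-181a-1-3p. The adjusted p of each was 0.995 by edgeR's quasi-likelihood test with Benjamini-Hochberg adjustment over all 361 tested miRNAs. Over all tested miRNAs 0% passed there by edgeR and by DESeq2. An unadjusted p under 0.05 was reached by 10 in edgeR and 15 in DESeq2, with no member among them. The members' median log2 fold change was -0.12, beside -0.04 over all tested miRNAs, of which 193 of 361 were lower. The high glucose sum of the family, 10955 ± 1354 CPM, stood against 13227 ± 3602 CPM for normal glucose (SD over 3 libraries), a ratio of 0.828 and a difference below the normal glucose SD.

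In that comparison 1 of the 6 tested members, miR-181d-5p, had all its high glucose libraries below all its normal glucose libraries in CPM, beside 6.93% of all tested miRNAs. None had them all above, beside 2.49%. On the scale of the test, where levels are further adjusted by TMM factors (trimmed mean of M values, a correction for library composition), its groups overlapped, at 665, 886 and 791 CPM in high glucose and 1020, 1019 and 756 CPM in normal glucose.

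High glucose was compared with mannitol at matched osmolality. The log2 fold changes were -0.09 (95% interval -0.70 to 0.52) for miR-181a-5p, -0.10 (-0.68 to 0.47) for miR-181b-5p, 0.03 (-0.59 to 0.65) for miR-181d-5p and -0.17 (-0.88 to 0.53) for miR-181c-3p. The rare strands had 0.51 (-0.92 to 1.94) for miR-181c-5p, which was higher in 7 of 9 pairs of libraries, and 0.07 (-1.44 to 1.58) for miR-181a-1-3p. None passed by edgeR (smallest adjusted p of a member 0.938), and 3 of 6 were lower. Over all tested miRNAs 0% passed by edgeR, and 1 passed by DESeq2, miR-182-5p. An unadjusted p under 0.05 was reached by 19 in edgeR and 26 in DESeq2, with no member among them. The members' median was -0.03, beside -0.04 over all tested miRNAs.

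By CPM the high glucose libraries stood apart from the mannitol libraries for miR-181a-5p and miR-181b-5p, 2 of 6 tested members, both lower in high glucose, beside 7.76% of all tested miRNAs. None was separated in the other direction, beside 2.49%. These 2 members come from neighbouring hairpins and the same libraries, and so are not separate observations. With TMM scaling both overlapped, miR-181a-5p at 4040, 6792 and 6798 CPM in high glucose and 5333, 6746 and 6670.3 CPM for mannitol, and miR-181b-5p at 4053, 5442 and 5284 CPM in high glucose and 5055, 5847 and 4992 CPM for mannitol. The lowest of these values was high glucose replicate 1 for both members. The family summed to 10955 ± 1354 CPM in high glucose, against 13028 ± 162 CPM in mannitol libraries (SD over 3 libraries), a ratio of 0.841. The ratio was 0.662 when counts were scaled to the constant behind the deposited normalized values. On that scale the median log2 fold change over all tested miRNAs was -0.59, so the lower ratio was not particular to the family.

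Mannitol was compared with normal glucose for osmolality alone. The log2 fold changes were -0.04 (95% interval -0.65 to 0.57) for miR-181a-5p, -0.04 (-0.62 to 0.53) for miR-181b-5p, -0.28 (-0.90 to 0.34) for miR-181d-5p and 0.08 (-0.62 to 0.79) for miR-181c-3p. They were -0.61 (-2.04 to 0.82) for miR-181c-5p and 0.12 (-1.39 to 1.64) for miR-181a-1-3p. No member passed by edgeR (adjusted p = 0.9996 for each), and 4 of 6 were lower, with a median of -0.04 beside 0.01 over all tested miRNAs. Among all tested miRNAs, 0% passed by edgeR and by DESeq2, while 5 by edgeR and 7 by DESeq2 had an unadjusted p under 0.05, with no member among them. No member's libraries separated in CPM, beside 2.22% of all tested miRNAs with mannitol above normal glucose and 1.11% below. The family sum of 13028 ± 162 CPM in mannitol libraries stood against 13227 ± 3602 CPM for normal glucose (SD over 3 libraries), a ratio of 0.985. A member's fold changes in the 3 comparisons are tied to each other, because each group of libraries enters 2 of them.

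**Figure D4:**
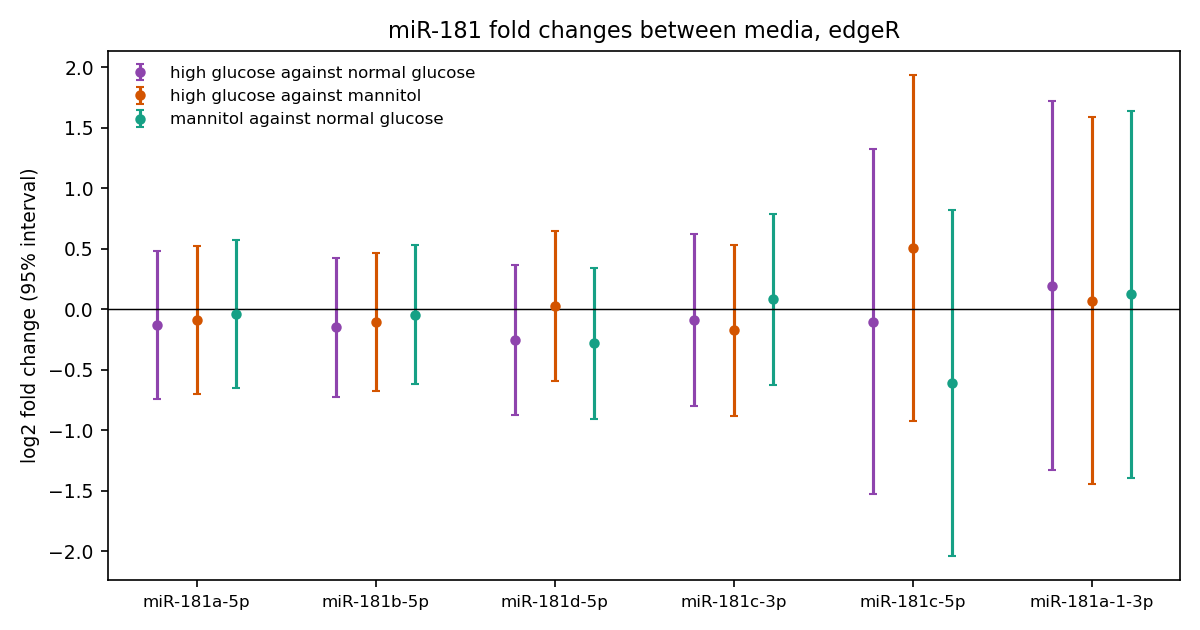
Log2 fold changes of level from edgeR with 95% intervals for the 6 tested members, in high glucose against normal glucose, high glucose against mannitol and mannitol against normal glucose. Every interval includes 0, and those of the rare miR-181c-5p and miR-181a-1-3p are the widest.

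The intervals show which sizes of change the fit did not exclude. For miR-181a-5p, miR-181b-5p and miR-181d-5p the bounds of all 3 comparisons lay between -0.90 and 0.65 on the log2 scale, while for miR-181c-5p and miR-181a-1-3p they reached from -2.04 to 1.94. A p that misses the threshold does not show equal levels, and for the rare strands the intervals included changes of several fold.

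Among themselves the members followed each other to different degrees. Across the 9 libraries, log2 TMM-scaled levels of miR-181a-5p correlated with those of miR-181c-3p (Pearson r 0.89, Spearman rho 0.67), miR-181b-5p (r 0.79, rho 0.67) and miR-181c-5p (r 0.73, rho 0.77), and less with miR-181d-5p (r 0.34, rho 0.38). With miR-181a-1-3p, the other strand of a shared hairpin, r was -0.28 and rho 0.08, at counts near the reporting limit. From the Nanos3 introns, miR-181d-5p had r 0.54 with miR-181c-3p and 0.41 with miR-181c-5p, and miR-181c-3p had 0.61 with miR-181c-5p. With miR-181b-5p, from other chromosomes, r was 0.58 for miR-181d-5p, 0.77 for miR-181c-3p and 0.41 for miR-181c-5p. These are descriptions over 9 libraries that share depth and composition across members, and a part of miscounted reads in the r of miR-181c-5p was not tested.

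Outside the family, the 5 of 254 miRNAs listed in all libraries whose levels ran most like miR-181a-5p were miR-30b-5p (r 0.78), miR-132-3p (r 0.72), miR-130a-3p (r 0.71), miR-221-3p (r 0.71) and miR-193b-3p (r 0.70). The median r over the 254 was 0.0732. Of these, miR-30b-5p, a member of the podocyte-associated miR-30 family, had 67.6, 76.8 and 99.5 CPM in high glucose, 81.2, 75.5 and 78.4 CPM for mannitol and 87.0, 50.6 and 107 CPM in normal glucose. The growth-promoting miR-221-3p, which represses the cell-cycle inhibitor p27, was the only one of the 5 with a level like that of miR-181a-5p. It ran from 6077 to 9723 CPM in high glucose, from 6478 to 8180.2 CPM for mannitol and from 6162 to 9276 CPM in normal glucose.

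Of other miRNAs that target BCL2, 4 of 8 were tested and none passed in any comparison by edgeR. The list's median log2 fold change was -0.02 in high glucose against normal glucose (2 higher, 2 lower), 0.58 in high glucose against mannitol (4 higher) and -0.59 in mannitol against normal glucose (1 higher, 3 lower). Its most abundant members were miR-16-5p, at means of 348, 222 and 339 CPM in high glucose, mannitol and normal glucose, and miR-34a-5p, which p53 induces, at 44.1, 39.8 and 57.6 CPM. In each medium the mean of miR-181a-5p alone was above both. The untested miR-195a-5p, miR-497a-5p, miR-204-5p and miR-153-3p were listed at 0 in all libraries.

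Of other miRNAs linked to NF-kB signalling and vascular inflammation, 8 of 9 were tested and none passed by edgeR. Their medians were -0.05 (3 higher, 5 lower), 0.42 (6 higher, 2 lower) and -0.30 (2 higher, 6 lower) in the same order of comparisons. The list was led by miR-10a-5p, which restrains NF-kB in endothelium, at means of 78308, 87434 and 100346 CPM in high glucose, mannitol and normal glucose, and by miR-21a-5p, at 65154, 50271 and 53916 CPM. The feedback inhibitor miR-146a-5p stood at 189.9 CPM in high glucose, 179.5 CPM for mannitol and 225 CPM in normal glucose.

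Markers of other cells that are rich in miR-181 or occur in serum also varied. The blood, immune and liver list (6 of 8 tested) had medians of -0.16, -0.39 and -0.05, and summed to 13495 to 25642 CPM in high glucose, 15507 to 33520.0 CPM for mannitol and 15523 to 30463 CPM in normal glucose. Among leukocyte miRNAs, miR-142a-3p was listed at 0 in all libraries, while the other arm of its hairpin, miR-142a-5p, was listed in 8 (mean 12.9 CPM), miR-150-5p in 8 (mean 14.5 CPM) and miR-223-3p in 5 (mean 6.08 CPM). Of the erythroid pair, miR-451a was listed in all 9 libraries (mean 226 CPM) and miR-144-3p in 1. The neural list (4 of 6 tested), led by miR-128-3p (mean 2129 CPM) and miR-9-5p (mean 50.3 CPM), had medians of -0.35, -0.27 and 0.18 and summed to 1397 to 2445, 1938 to 3055 and 1994 to 3415 CPM in the same order of media. The brain-defining miR-124-3p had a mean of 27.2 CPM. The muscle list (4 of 5 tested), led by miR-206-3p (mean 1486 CPM) and miR-1a-3p (mean 649.97 CPM), had medians of -0.33, -0.40 and 0.42 and summed to 1573 to 1820.2, 1594 to 6126 and 1740.2 to 3192 CPM. With the expression filter no marker passed by edgeR in any comparison. Without it, edgeR called the muscle marker miR-1a-3p in high glucose against mannitol (log2 fold change -2.78, adjusted p = 5.26e-12) and in mannitol against normal glucose (2.08, adjusted p = 1.61e-06), and the neural marker miR-9-5p in high glucose against normal glucose (2.37, adjusted p = 0.0101). With the filter the same fold changes were -2.70, 1.99 and 2.38, with standard errors of 1.58, 1.54 and 1.73. The part of other cells or of serum in the miR-181 levels was not tested.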

How the data were processed

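Small RNA libraries of podocyte vesicles were sequenced after adapter ligation and gel size selection, per the labels' protocols. Per the file headers, each deposited table gives a total count per miRNA, and those whole-number counts were used as deposited. The second deposited value is an RPM, the count divided by a constant per library that was 10.3 to 29.2 times the miRNA total and is not explained in the sources used here. The submitters' processing notes name bcl2fastq, BWA and mm10, with versions and settings not given in the sources used here. Duplicate deposits were sought by chi-square per degree of freedom between libraries of a group (74.8 to 645), and none was found.

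Groups follow the treatment label, and an unnumbered title was taken as replicate 1. One joint edgeR 4.0.16 fit (R 4.3.3) of all 9 libraries used TMM scaling, expression filtering by group (361 of 479 listed miRNAs kept) and the robust quasi-likelihood test, with a threshold of 0.05 after Benjamini-Hochberg adjustment. Intervals came from the same fit. The code was tested on simulated data. DESeq2 1.42.0 was an alternative. Members and lists were chosen with earlier results of these data known. Named outside the family were the 5 miRNAs most correlated with miR-181a-5p and the 2 most abundant of each list. Further list members were named to show the range of levels within a list, and miR-146a-5p for its role, all after their values were seen, as were miR-182-5p, miR-6538 and miR-19b-3p.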

Additional observations from a re-analysis of the deposited data

How the results depend on the processing

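No member passed in any comparison under any alternative run, including DESeq2, other size factors, no filter, zeros set to 9 reads and each library left out. The adjusted p of members ranged down to 0.497 (miR-181c-5p, high glucose against mannitol). Over all miRNAs, removing the filter gave 2, 3 and 1 calls in high glucose against normal glucose, high glucose against mannitol and mannitol against normal glucose, where the main count was 0 (miR-9-5p and miR-6538, then miR-1a-3p, miR-19b-3p and miR-6538, then miR-1a-3p), and DESeq2 gave 1 in the second (miR-182-5p). Leaving out a library gave 0 to 1 calls in high glucose against mannitol (miR-19b-3p, without mannitol replicate 2) and 0 in the others. The cause was not tested.

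Scaling to the library constant moved the median of all miRNAs to -0.12, -0.59 and 0.50. Fold changes that turned sign there were miR-181d-5p (-0.48) and miR-181a-1-3p (-0.45) in high glucose against mannitol, and miR-181a-5p (0.40), miR-181b-5p (0.36) and miR-181d-5p (0.16) in mannitol against normal glucose. Members' medians were -0.17, -0.53 and 0.38. The summed-level ratio was then 0.854 in high glucose against normal glucose, 0.662 in high glucose against mannitol and 1.29 in mannitol against normal glucose. In that order CPM gave 0.828, 0.841 and 0.985.

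With a library left out, log2 fold changes in high glucose against normal glucose ranged from -0.33 to 0.034 (miR-181a-5p), -0.29 to 0.083 (miR-181b-5p), -0.45 to 0.30 (miR-181c-5p) and -0.24 to 0.078 (miR-181c-3p). In high glucose against mannitol they ranged from -0.21 to 0.048 (miR-181a-5p), -0.085 to 0.29 (miR-181d-5p), -0.10 to 0.30 (miR-181a-1-3p) and -0.34 to 0.011 (miR-181c-3p). In mannitol against normal glucose they ranged from -0.19 to 0.10 (miR-181a-5p), -0.12 to 0.19 (miR-181b-5p) and -0.11 to 0.30 (miR-181a-1-3p). All other members kept their sign in those settings. The miR-181c-5p fold change nevertheless moved most, from 0.20 (without mannitol replicate 1) to 1.02 (without mannitol replicate 2) in high glucose against mannitol, and from -1.04 (without mannitol replicate 2) to -0.15 (without normal glucose replicate 3) in mannitol against normal glucose.

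For each miRNA listed in all libraries, the group mean was subtracted from the log2 levels. These deviations were then correlated between libraries of different groups. Same-numbered libraries correlated at 0.0444 to 0.682, against -0.711 to 0.338 for other pairs. Because the deviations of a group sum to 0, some negative values are built in. By this measure 7 of 9 libraries correlated best with their own number, a hint of pairing from the data. The numbers were still not taken as pairing, because the labels do not say what they mark and only 7 of 9 pairs were above 0.1, where every pair was required. With the replicate block edgeR called 0 miRNAs in each comparison, with 19, 52 and 17 at an unadjusted p under 0.05 (10, 19 and 5 without it), and changed no member's call or sign. The separation of libraries in CPM, compared with TMM scaling after seeing the data, was lost for all 3 member results.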

Other observations

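The files list 3 more miR-181 strands outside the 7 members, all of the 3p arm. The chromosome 1 strand miR-181b-1-3p was listed in 6 of 9 libraries, at 10 to 22 reads where listed. Its chromosome 2 counterpart miR-181b-2-3p was listed at 0 in all 9, and miR-181d-3p was listed in mannitol replicate 3 alone, at 12 reads. In the listed data, then, both 3p strands of the chromosome 1 locus occurred (miR-181a-1-3p with 250 reads in all and miR-181b-1-3p with 85), and neither 3p strand of the chromosome 2 locus did. Per library, miR-181a-1-3p had 14 to 52 reads, beside a reporting limit of 10 reads.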
